A study of Mus musculus with 33 samples.

Results

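LSD1, a histone demethylase, was set against Sin3A, the scaffold of a histone deacetylase complex, by the places each occupied on the chromatin of C2C12 myotubes. C2C12 cells are mouse muscle precursors that divide while serum is plentiful and join into long multinucleated fibres once it is lowered, and the myotubes were collected after 96 h in 2% horse serum. The members were all autosomal peaks of the LSD1 list (16361 peaks) and of the authors' pooled Sin3A list (13845 peaks). They were chosen by factor and cell state, with earlier results of these data known. Sin3A also had 2 replicate lists, of 9270 and 426 autosomal peaks. These are 3 of the 33 samples of the series, which also holds myoblast lists for LSD1, ING1, Menin, MLL1, MLL3 and Wdr5 and a myotube list for ING1. The labels name no transgene in the cells used for LSD1 and Sin3A, the chromatin was sonicated, and each protein was pulled down with an antibody against itself. The ING1 lists used below as annotation came from a stable line that expressed Flag-tagged ING1, in myotubes of the same 96 h and in myoblasts kept in 10% fetal bovine serum. The series' design text lists both factors under growing myoblasts, whereas the labels of these 3 samples give myotubes, and cell state was taken from the labels. The cell state rests on those labels, since peak lists carry no marker levels.

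LSD1 removes mono- and dimethyl marks from lysine 4 of histone H3, and it works mostly in the CoREST complex, where it sits beside the deacetylases HDAC1 and HDAC2. Sin3A has no catalytic activity of its own. It holds the same deacetylases together with ING1 or its relative ING2, whose PHD finger recognises trimethylated lysine 4, a mark of active promoters. In muscle cells LSD1 is known for its part in switching on myogenic genes during differentiation, and Sin3 proteins have been linked to the control of sarcomere genes.

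A peak is a stretch of chromosome in which the authors found an excess of immunoprecipitated fragments, and its boundaries in base pairs of build mm9 were the sole deposited values. There was no height, fold or significance, so how deeply each list was sequenced is unknown. Whether LSD1 and Sin3A peaks were called with the same settings is not stated either. LSD1 had 1 list, whose file name says merged without saying of what, so no difference between LSD1 and Sin3A could be tested against a spread between replicates, and all contrasts below are descriptions of these lists. The Sin3A replicates differed widely in length, yet 97.9% of the replicate 2 peaks lay in replicate 1. Of the pooled Sin3A peaks, 415 met both replicate lists, 8390 met replicate 1 alone, 6 met replicate 2 alone and 5034 met neither. Intervals are exact binomial 95% intervals, or the matching interval of a median, and cover counting error only.

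LSD1 peaks were narrower than pooled Sin3A peaks at the median and had a longer wide tail. The median width was 627 bp for LSD1 (interval 622 to 632, middle 50% from 483 to 879) and 698 bp for pooled Sin3A (690 to 705, middle 50% from 507 to 1025), a ratio of 0.898 (interval 0.882 to 0.916). The order turned with the Sin3A list that was used, because the median was 745.5 bp in replicate 1 and 514 bp in replicate 2, so that the LSD1 median lay between the Sin3A replicates. Without Sin3A replicate 1 the ratio was 1.22, and without Sin3A replicate 2 it was 0.841. LSD1 was narrower than pooled Sin3A on 17 of 19 autosomes, and wider on chromosome 10 (658 against 647 bp) and chromosome 15 (654 against 614 bp).

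The wide end of the distributions went the other way. LSD1 had 579 peaks over 2 kb (3.54%) and 63 over 5 kb, the widest of 19799 bp, whereas pooled Sin3A had 373 over 2 kb (2.69%) and 2 over 5 kb, the widest of 5916 bp. No peak of either Sin3A replicate list exceeded 5 kb. In the 95th percentile the lists were alike, at 1746 bp for LSD1 and 1733 bp for Sin3A, and in the 99th they parted, at 3349 and 2451 bp. In all, LSD1 peaks covered 13.0 Mb and Sin3A peaks 11.5 Mb, which is 0.541% and 0.477% of the autosomal span between the outermost peaks of the series.

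**Figure D1:**
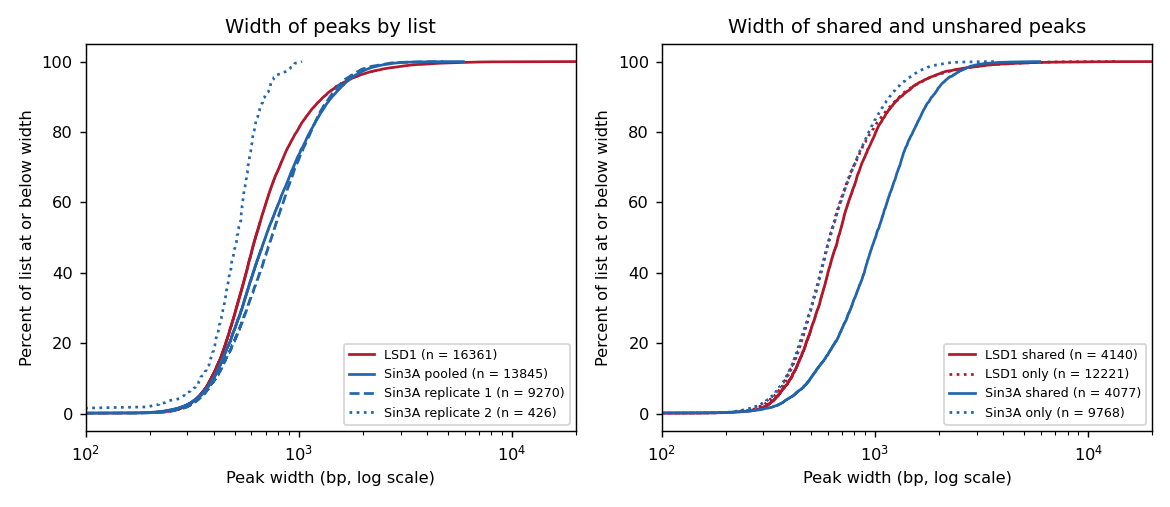
Cumulative width of peaks (bp, log scale) as percent of each list. Left, LSD1 and the 3 Sin3A lists; the LSD1 median (627 bp) lies between those of Sin3A replicates 1 (745.5 bp) and 2 (514 bp). Right, shared and unshared peaks; shared Sin3A peaks (solid blue, median 1004 bp) stand to the right of the other 3 classes, whose medians are 672 bp (LSD1 shared), 613 bp (LSD1 only) and 615 bp (Sin3A only).

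Most peaks of either list had no counterpart in the other. Of the LSD1 peaks, 4140 met a pooled Sin3A peak by 1 bp or more (25.3%, interval 24.6 to 26.0), and 12221 met none. Of the pooled Sin3A peaks, 4077 met an LSD1 peak (29.4%, interval 28.7 to 30.2), and 9768 met none. In base pairs 2.60 Mb were covered by both, 19.99% of what LSD1 covered and 22.7% of what Sin3A covered. The share of LSD1 peaks is bounded by the length of the Sin3A list, and was 1.24% with the 426 peaks of replicate 2 and 22.7% with the 9270 peaks of replicate 1.

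Sin3A sites with better support carried LSD1 more often. LSD1 lay at 39.6% of the Sin3A replicate 1 peaks and at 46.7% of the replicate 2 peaks. It lay at 51.1% of the 415 pooled Sin3A peaks found in both replicates (interval 46.2 to 56.0), at 40.3% of the 8390 found in replicate 1 alone and at 9.56% of the 5034 found in neither. The peaks found in neither list were also narrower, with a median of 521 bp against 1205 bp for those in both. Within 5 equal classes of Sin3A width, LSD1 lay at 18.6% to 60.9% of peaks present in a replicate list and at 7.98% to 30.8% of peaks present in none, and the supported peaks had the higher share in each class. The part of replicate support in these shares was not tested.

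Sharing followed the width of the Sin3A peak closely and that of the LSD1 peak little. Over 10 equal width classes (deciles) of the Sin3A list, narrowest first, the share with LSD1 was 13.2%, 10.9%, 14.5%, 13.2%, 18.6%, 27.4%, 35.3%, 41.3%, 53.5% and 66.5%. Over the deciles of the LSD1 list, narrowest first, the share with Sin3A was 21.3%, 21.4%, 21.5%, 22.1%, 24.6%, 26.5%, 29.2%, 30.8%, 30.0% and 25.7%. Wide Sin3A peaks were thus mostly shared, while the widest LSD1 peaks were shared about as often as the whole LSD1 list. A wide peak is also a larger target, so the share of peak centres covered by the other factor was taken as well. LSD1 covered 11.4% of the Sin3A centres in the narrowest decile and 42.8% in the widest. Sin3A covered 20.2% of the LSD1 centres in the narrowest decile, 27.6% in the eighth and 16.9% in the widest.

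Around a peak of one factor the coverage by the other was sharply local, with a low shoulder. Sin3A peaks covered 22.3% of LSD1 centres, 13.9% of positions 0.5 kb away, 3.62% at 2 kb, 2.56% at 10 kb and 0.883% at 500 kb. LSD1 peaks covered 22.6% of Sin3A centres, 11.3% of positions 0.5 kb away, 3.97% at 2 kb, 2.84% at 10 kb and 0.979% at 500 kb. With replicate 1 of Sin3A in place of the pooled list, LSD1 covered 31.5% of Sin3A centres and 0.998% of positions 500 kb away. Both profiles therefore fell most of their height within the first 2 kb and had not levelled off at 100 kb, where they stood at 1.24% and 1.46%.

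**Figure D2:**
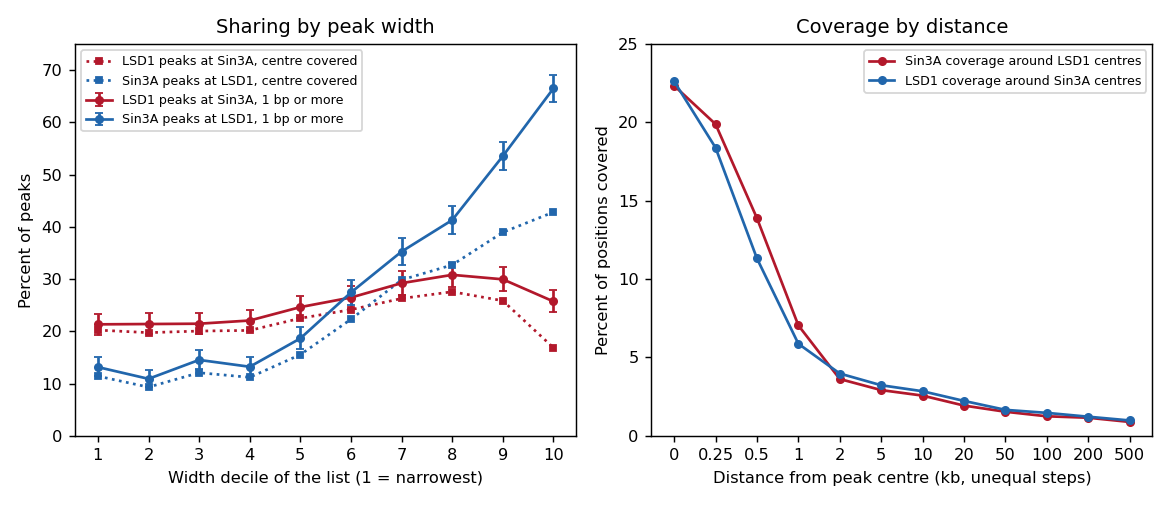
Left, percent of LSD1 (red) and Sin3A (blue) peaks that met the other factor, by width decile, with exact 95% intervals; dotted lines show the percent of centres covered. The Sin3A line climbs to 66.5% and the LSD1 line stays between 21.3% and 30.8%. Right, percent of positions covered by the other factor at set distances (kb, unequal steps) from peak centres, from 22.3% and 22.6% at the centre to 0.883% and 0.979% at 500 kb.

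Where LSD1 met pooled Sin3A, the LSD1 peak was usually the smaller and lay within or across the edge of the Sin3A peak. The order of widths turned with Sin3A replicate 2, with medians of 798 bp for LSD1 and 550 bp for Sin3A over 203 pairs. With replicate 1 the medians were 686 bp for LSD1 and 941 bp for Sin3A. The values below are for the pooled list. The 4140 LSD1 and 4077 Sin3A peaks formed 4339 overlapping pairs, of which 3491 joined a single peak of each list. In 1845 pairs (42.5%) the LSD1 peak lay wholly inside the Sin3A peak, in 398 (9.17%) the Sin3A peak lay inside the LSD1 peak, and in 2096 (48.3%) they were staggered. In the single pairs the median width was 665 bp for LSD1 and 1009 bp for Sin3A, and LSD1 was the wider in 23.0%. A shared LSD1 peak was covered by Sin3A over a median of 96.1% of its length, and a shared Sin3A peak by LSD1 over 61.2%. Overlaps at the very edge were rare, with 104 pairs (2.40%) sharing under 100 bp.

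The centres of shared peaks were a median of 211.5 bp apart (interval 200 to 222.5), with the middle 50% of pairs between 89.5 and 404 bp. Sonication to a fragment size of about 250 bp sets the scale at which such distances can be read. In 27.9% of pairs the centres lay within 100 bp, in 17.6% more than 500 bp apart, and in 384 pairs (8.85%) neither centre lay inside the other peak. The LSD1 centre was at the lower coordinate in 2050 pairs (47.2%) and at the same position as the Sin3A centre in 7. With the Sin3A replicate lists the median distance was 189.5 bp (replicate 1) and 203 bp (replicate 2).

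The LSD1 to Sin3A distance was larger than the distance between Sin3A replicates and close to the distances from either factor to ING1. Replicates 1 and 2 of Sin3A had centres a median of 111 bp apart over 419 pairs (interval 99 to 127), with 45.3% within 100 bp. In myotubes LSD1 and ING1 centres were 188 bp apart (interval 179.5 to 196.5) and Sin3A and ING1 centres 172 bp (167.5 to 179). LSD1 in myotubes and LSD1 in myoblasts were 165 bp apart where they met, over 2029 pairs. These yardsticks come from peaks of other widths, and the distance differed with width, being longest at the widest Sin3A peaks. The LSD1 to Sin3A median was 175 bp for Sin3A peaks under 500 bp, 147 bp for those from 500 to under 1000 bp, 250 bp from 1000 to under 2000 bp and 500 bp from 2000 bp on. Set against the mean width of the pair, the median offset was 0.235 for LSD1 and Sin3A, 0.236 for LSD1 and ING1, 0.196 for Sin3A and ING1 and 0.148 for the Sin3A replicates.

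ING1, the reader subunit of Sin3 complexes, gave a common point of reference at sites with all 3 proteins. In 2465 triads of a single peak each, ING1 lay a median of 154.5 bp from LSD1 and 130.5 bp from Sin3A, and LSD1 and Sin3A lay 154 bp apart. Sin3A was the nearer to ING1 in 1331 triads (54.0%) and LSD1 in 1130 (45.8%). ING1 was the middle peak in 36.6% of triads, Sin3A in 33.4% and LSD1 in 29.7%, so each of the 3 was the middle one at many sites. The LSD1 to Sin3A distance was 210.5 bp where the Sin3A peak had ING1 and 216 bp where it had none. The Sin3A peaks of these pairs had median widths of 1121 bp with ING1 and 656 bp without, and set against the mean width of the pair the offset was 0.225 with ING1 and 0.293 without.

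**Figure D3:**
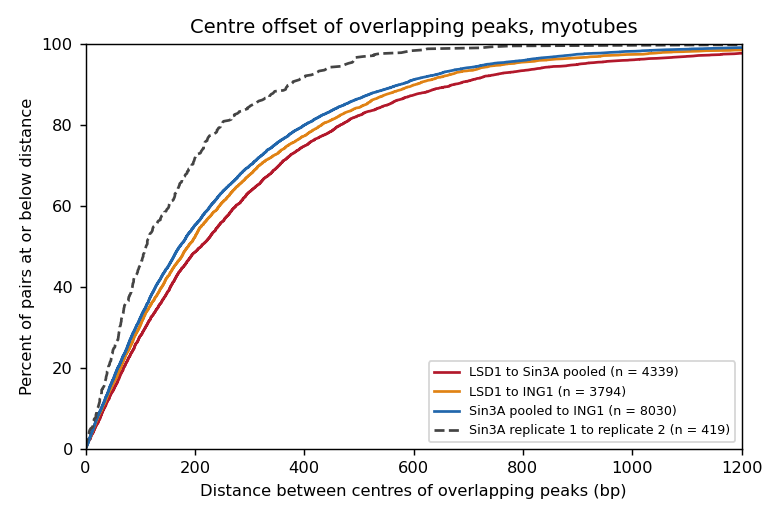
Cumulative distance (bp) between the centres of overlapping peaks, as percent of pairs. The LSD1 to Sin3A curve (red, median 211.5 bp) lies to the right of LSD1 to ING1 (orange, 188 bp), Sin3A to ING1 (blue, 172 bp) and Sin3A replicate 1 to 2 (dashed, 111 bp).

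The 8 shared sites with the longest overlap, among Sin3A peaks found in both replicates, show these layouts at single places. The first lay on chromosome 1, where LSD1 spanned 59538905 to 59542172 (3268 bp) wholly inside a Sin3A peak from 59538371 to 59543221 (4851 bp), with centres 257.5 bp apart. The closest match was on chromosome 15, where LSD1 from 38229243 to 38231289 and Sin3A from 38229169 to 38231298 had centres 32.5 bp apart and each covered at least 96.1% of the other. The opposite was seen on chromosome 17, where LSD1 from 34251655 to 34256420 and Sin3A from 34254086 to 34256868 were staggered by 1440 bp between centres, so that Sin3A covered 49.0% of the LSD1 peak. On chromosome 10 a single Sin3A peak of 5322 bp, from 79610281 to 79615602, carried 4 LSD1 peaks.

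All 8 of these sites also held ING1 of myotubes, ING1 of myoblasts, Menin and Wdr5. Over all shared LSD1 peaks these lists lay at 81.0%, 69.9%, 90.7% and 85.2%, in that order, and wide peaks are larger targets. ING1 of myotubes covered 39.0% to 100% of the LSD1 peak and Menin 11.6% to 100%. LSD1 of myoblasts was present at 7 of the 8 and lacking at the chromosome 10 site with 4 LSD1 peaks. MLL3 was absent from the LSD1 peak at 4 of the 8. Over all shared LSD1 peaks, LSD1 of myoblasts lay at 43.3% and MLL3 at 17.1%.

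Sites of a single factor made up most of each list, and the classes differed in width for Sin3A more than for LSD1. Shared LSD1 peaks had a median width of 672 bp and LSD1-only peaks of 613 bp. Shared Sin3A peaks had a median of 1004 bp and Sin3A-only peaks of 615 bp. Shared peaks were wider than unshared ones on 15 of 19 autosomes for LSD1 and on 19 of 19 for Sin3A. Peaks over 2 kb were as frequent among shared as among LSD1-only peaks (3.48% and 3.56%), but made up 7.24% of shared and 0.799% of Sin3A-only peaks.

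LSD1-only sites were seldom far from a Sin3A site, while many Sin3A-only sites were remote from LSD1. The median gap to the nearest peak of the other factor was 13.0 kb for LSD1-only peaks and 36.0 kb for Sin3A-only peaks. LSD1-only peaks lay within 10 kb of Sin3A in 42.7% of cases and more than 100 kb away in 7.10%, against 28.8% and 28.5% for Sin3A-only peaks. Of the Sin3A-only peaks 46.6% were in neither replicate list, and the gaps were not split by this support. Another peak of the same list lay within 10 kb of 79.2% of LSD1-only and 36.4% of Sin3A-only peaks, so many LSD1-only gaps come from neighbouring peaks. Near misses were few, with 388 LSD1-only peaks (3.17%) and 600 Sin3A-only peaks (6.14%) within 500 bp of the other factor.

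LSD1 peaks crowded together in a way that Sin3A peaks did not. When peaks of a list separated by 5 kb or less were joined into groups, 5707 LSD1 peaks (34.9%) fell into 618 groups of 5 or more, against 169 pooled Sin3A peaks (1.22%) in 29 such groups. Single peaks made up 36.5% of the LSD1 list and 69.5% of the Sin3A list. Replicate 1 of Sin3A had 0.615% of its peaks in groups of 5 or more, ING1 of myotubes 1.72% and LSD1 of myoblasts 0.453%. These lists are shorter, with 9270, 9570 and 4419 peaks, and LSD1 of myotubes was not cut to their lengths. With gaps of 2 kb and 10 kb the LSD1 share was 18.8% and 45.3%, and the Sin3A share 0.730% and 3.03%. When LSD1 was shortened to its widest peaks to match the length of the Sin3A list, the share was 30.5%. A dense group can be 1 broad domain that the authors' caller listed in pieces, or many separate sites, and the boundaries cannot tell these apart.

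Counted by peak, the crowded LSD1 peaks were the ones with least Sin3A. The intervals here treat the peaks of a group as separate sites. Sin3A lay at 40.1% of single LSD1 peaks (interval 38.8 to 41.3), at 24.9% of those in groups of 2 to 4 and at 10.2% of those in groups of 5 or more (interval 9.44 to 11.0), beside 25.3% of all LSD1 peaks. ING1 of myotubes lay at 35.6%, 22.0% and 7.67% of these classes, and Wdr5 of myoblasts at 42.5%, 28.5% and 14.6%. Menin changed less, at 49.1%, 45.5% and 35.7%, and MLL3 was at 24.5%, 30.6% and 22.8%. The peaks in large groups were wider, with medians of 578, 621 and 733 bp from single to large groups, and held 52 of the 63 LSD1 peaks over 5 kb. The order depended on the unit counted. Most large groups touched Sin3A somewhere, while most single peaks did not, and a group is a larger target. Of the 618 groups, 273 (44.2%) had no peak at Sin3A, 192 had 1 and 153 had 2 or more. For Sin3A peaks the share with LSD1 was 27.2% when single, 34.6% in groups of 2 to 4 and 32.5% in groups of 5 or more.

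**Figure D4:**
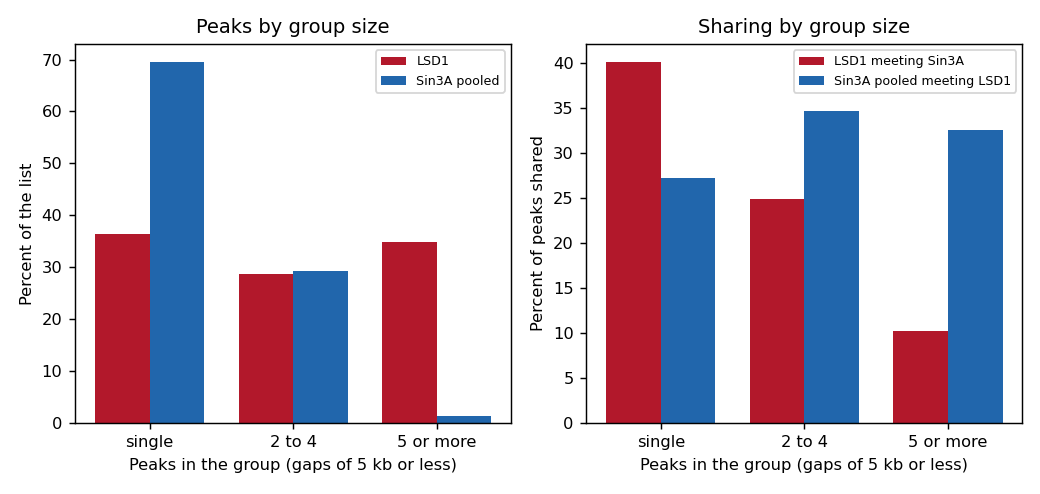
Left, percent of the LSD1 (red) and pooled Sin3A (blue) peaks that were single, in groups of 2 to 4 or in groups of 5 or more, joined at gaps of 5 kb or less; 34.9% of LSD1 and 1.22% of Sin3A peaks lay in the largest class. Right, percent of those peaks that met the other factor; for LSD1 the bars stand at 40.1%, 24.9% and 10.2%.

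The 3 LSD1 groups with most peaks, picked after their values were seen, spanned 146 to 182 kb. On chromosome 16 from 92637017 to 92819454, 78 LSD1 peaks covered 66.4% of 182 kb, and 3 of them met Sin3A. On chromosome 15 from 27783133 to 27955127, 60 peaks covered 87.4% of 172 kb, and 6 met Sin3A. On chromosome 10 from 39089535 to 39235212, 58 peaks covered 72.7% of 146 kb, and 4 met Sin3A. The same stretches held 3, 1 and 0 LSD1 peaks in myoblasts, 28, 50 and 16 Menin peaks and 15, 13 and 8 Wdr5 peaks. The whole lists of these factors hold 4419, 68934 and 58123 peaks over an autosomal span of 2409 Mb. The counts therefore cannot be compared between factors as they stand. The largest Sin3A groups were far smaller. The first, on chromosome 6 from 52167279 to 52195642, had 11 Sin3A peaks over 28.4 kb and no LSD1 peak in myotubes, with 8 ING1 peaks of myotubes and 4 LSD1 peaks of myoblasts in it. The next, on chromosome 11 from 109509633 to 109518129, had 8 Sin3A peaks, of which 7 met LSD1, though the stretch held only 2 LSD1 peaks.

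The 8 widest LSD1 peaks that met none of the 3 Sin3A lists held Menin at 7 of 8 places and Wdr5 at 3, against 27.3% and 9.66% of all LSD1-only peaks, and wide peaks are larger targets. They were 7771 to 13610 bp wide, and no ING1 peak of either state and no LSD1 peak of myoblasts touched any of them. The widest, on chromosome 15 from 27906686 to 27920295, had its nearest Sin3A peak 6773 bp away, and Menin covered 35.2% of it and Wdr5 15.7%. The next, on chromosome 3 from 121139151 to 121150162, was the single one of the 8 with MLL3, on 29.3% of its length. The third, on chromosome 2 from 156565064 to 156575163, held Menin on 12.6% and no other listed factor. Gaps to Sin3A ran from 1342 bp, on chromosome 17 from 79741863 to 79750815, to 25598 bp, on chromosome 15 from 25604028 to 25611798. This last site, 7771 bp wide, met no other list of the series. MLL1 touched 1 of the 8, on chromosome 15 from 25578425 to 25588273. The 8 are not all separate places. On chromosome 15, the peaks starting at 27834364 and 27906686 lay in the same group of 60 LSD1 peaks. Those starting at 25578425 and 25604028 lay near each other.

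The 8 widest Sin3A peaks found in both replicates and without LSD1 held ING1, as did most Sin3A peaks found in both replicates (404 of 415, 97.3%). Peaks of this class without LSD1 numbered 197 outside chromosome 18, and the 8 widest were 1968 to 2572 bp wide. All 8 held ING1 of myotubes, which covered 75.5% to 93.4% of each, and all 8 held Menin. The widest, on chromosome 1 from 88254790 to 88257361, had 2 LSD1 peaks in myoblasts over 52.2% of its length, while the nearest LSD1 peak in myotubes was 127025 bp away. The second, on chromosome 13 from 30076524 to 30078937, was fully covered by Wdr5 and lay 5441 bp from LSD1. The most remote, on chromosome 8 from 119444565 to 119446539, lay 349088 bp from the nearest LSD1 peak and was the single one of the 8 without Wdr5. LSD1 of myoblasts was present at 5 of these 8 sites, in which myotubes had no LSD1 peak. Over all Sin3A-only peaks of 1200 bp or more, LSD1 of myoblasts lay at 46.6%, Menin at 90.4% and Wdr5 at 89.4%.

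The other lists of the series separated the classes sharply. All of them but ING1 of myotubes are from myoblasts, so those overlaps join different cell states. ING1 of myotubes, at 22% of all LSD1 and 52.8% of all Sin3A peaks, lay at 81.0% of shared LSD1 peaks and 1.96% of LSD1-only peaks, and at 82.3% of shared Sin3A peaks and 40.5% of Sin3A-only peaks. The difference between LSD1-only and Sin3A-only sites was -38.6 percentage points. It was -59.9 without Sin3A replicate 2, -74.1 without Sin3A replicate 1 and -75.7 with Sin3A peaks found in both replicates. For -74.1 and -75.7, 16158 and 16121 of the 16361 LSD1 peaks counted as LSD1-only. That class then includes most LSD1 peaks that met pooled Sin3A, so these values do not compare the same sites. ING1 of myoblasts, at 18.9% of all LSD1 and 44% of all Sin3A peaks, lay at 69.9% of shared LSD1, 1.63% of LSD1-only, 71.6% of shared Sin3A and 32.5% of Sin3A-only peaks. Menin, a cofactor of MLL1 complexes found at 43.4% of all LSD1 and 68% of all Sin3A peaks, lay at 90.7% of shared LSD1, 27.3% of LSD1-only, 90.6% of shared Sin3A and 58.6% of Sin3A-only peaks. Wdr5, a subunit common to MLL complexes found at 28.8% of all LSD1 and 65% of all Sin3A peaks, lay at 85.2%, 9.66%, 85.6% and 56.4% of the same 4 classes. MLL1, an H3K4 methyltransferase found at 11% of all LSD1 and 26.4% of all Sin3A peaks, lay at 37.5%, 2.05%, 40.1% and 20.7%. These 5 lists thus had the same order, with shared sites highest and LSD1-only sites lowest.

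The order of the unshared classes was the same in each width class for 6 of the 7 lists, MLL3 being the exception, with LSD1-only below Sin3A-only in 1 of 5 classes. Within 5 width classes, with bounds at 400, 600, 800 and 1200 bp, ING1 of myotubes lay at 1.13% to 3.34% of LSD1-only peaks and at 20.2% to 87.5% of Sin3A-only peaks, and LSD1-only was below Sin3A-only in 5 of 5 classes. The same 5 of 5 was found for ING1 of myoblasts, LSD1 of myoblasts, Menin, MLL1 and Wdr5. Replicate support moved the Sin3A-only values strongly. Of the 5215 Sin3A-only peaks present in a replicate list, 64.5% had ING1 of myotubes and 78.8% had Wdr5, and of the 4553 present in none, 13.1% and 30.8%. LSD1-only sites were below both, at 1.96% and 9.66%. The single-replicate lists of ING1 in myotubes gave 0.164%, 0.205% and 0.00818% at LSD1-only and 9.01%, 10.2% and 0.461% at Sin3A-only sites. At shared LSD1 peaks they gave 23.7%, 28.7% and 1.52%. Replicate 3 thus met few peaks of any class, and its 0.00818% is 1 peak.

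**Figure D5:**
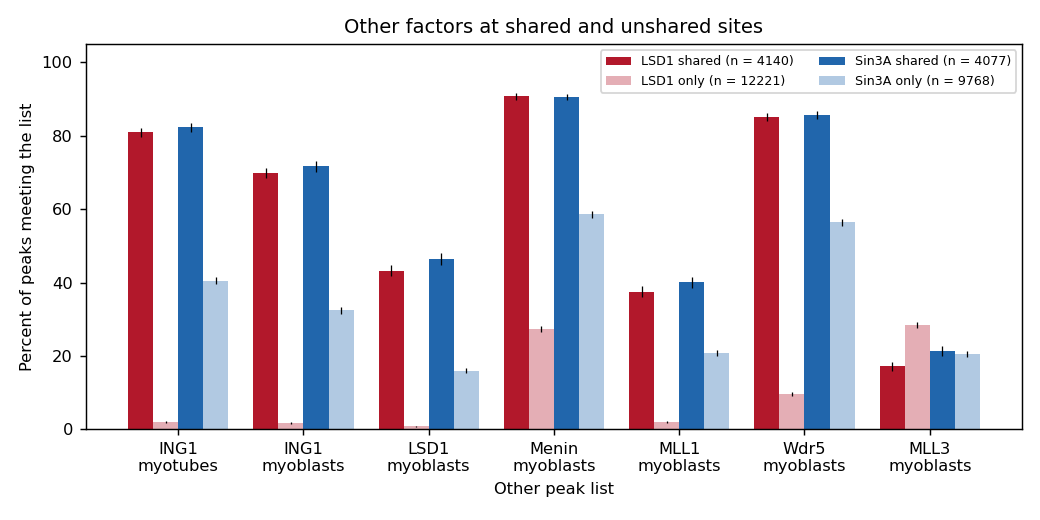
Percent of shared and unshared LSD1 (red) and Sin3A (blue) peaks that met each of 7 other lists, with exact 95% intervals; pale bars are unshared peaks. LSD1-only bars are the lowest of the 4 for every list but MLL3, where LSD1-only is the highest at 28.5%.

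Many LSD1-only sites met no other list, though all of these lists but ING1 of myotubes are from myoblasts. Of these 12221 peaks, 6031 (49.3%) met none of the 7 other lists and 179 (1.46%) met 4 or more. Of the 4140 shared LSD1 peaks, 99 (2.39%) met none and 3064 (74.0%) met 4 or more. Sin3A-only peaks lay between, with 2201 of 9768 (22.5%) meeting none and 3307 (33.9%) meeting 4 or more. Of the 4077 shared Sin3A peaks, 107 (2.62%) met none and 3096 (75.9%) met 4 or more. The shared and unshared peaks together make up each whole list. Read the other way, Sin3A lay at 93.3% of the LSD1 peaks that had ING1 in myotubes and at 6.16% of those that lacked it, and LSD1 lay at 45.9% of Sin3A peaks with ING1 and at 11.1% of those without. With Wdr5 as the divider the shares were 74.9% and 5.25% for Sin3A at LSD1 peaks, and 38.8% and 12.1% for LSD1 at Sin3A peaks.

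The places LSD1 held in myoblasts were more often Sin3A sites than LSD1 sites in myotubes. Of the 4419 autosomal LSD1 peaks of myoblasts, 1871 (42.3%) met both LSD1 and Sin3A of myotubes, 128 (2.90%) met LSD1 alone, 1881 (42.6%) met Sin3A alone and 539 (12.2%) met neither. From the myotube side, an LSD1 peak of myoblasts lay at 11.6% of all LSD1 and 24.9% of all Sin3A peaks, and at 43.3% of shared LSD1 peaks, 0.810% of LSD1-only peaks and 16.0% of Sin3A-only peaks. The ING1 lists were split in a similar way. Of the ING1 peaks of myoblasts 35.6% met both, 2.38% LSD1 alone and 40.8% Sin3A alone, and of the ING1 peaks of myotubes 35.4%, 2.35% and 44.5%. The single LSD1 list per state has no replicate to set these shares against.

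MLL3, which methylates H3K4 mainly at enhancers, was the one list with its highest share at LSD1-only sites over all widths, an order that turned for peaks of 1200 bp or more. It lay at 17.1% of shared LSD1, 28.5% of LSD1-only, 21.3% of shared Sin3A and 20.4% of Sin3A-only peaks, with 25.6% of all LSD1 and 20.7% of all Sin3A peaks for comparison. Among peaks of 1200 bp or more LSD1-only sites were the lowest, with MLL3 at 27.9% of shared LSD1, 22.0% of LSD1-only, 26.3% of shared Sin3A and 26.2% of Sin3A-only peaks. Its coverage rose towards LSD1-only centres and sank towards shared ones. At LSD1-only peaks MLL3 covered 24.7% of centres, 19.8% of positions 2 kb away, 17.1% at 10 kb and 12.9% at 500 kb. At shared LSD1 peaks it covered 11.3% of centres, 12.6% at 2 kb, 16.1% at 10 kb and 12.6% at 500 kb. At Sin3A-only peaks the profile was flat, with 13.3% at the centre and 14.1% at 10 kb. MLL3 was mapped in myoblasts and LSD1 and Sin3A in myotubes, so the overlap joins different cell states.

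Sharing varied modestly among the autosomes. The share of LSD1 peaks at Sin3A ran from 18.9% on chromosome 8 to 30.1% on chromosome 14, and that of Sin3A peaks at LSD1 from 23.5% on chromosome 7 to 33.7% on chromosome 11. LSD1 had more peaks than Sin3A on 16 of 19 autosomes. The ratio of LSD1 to Sin3A peaks was highest on chromosome 8 (1.58, 1433 against 907 peaks) and lowest on chromosome 7 (0.811, 541 against 667). Chromosomes 11 and 8 held the most LSD1 groups of 5 or more peaks, with 65 and 59, and chromosome 14 the fewest, with 11.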

How the data were processed

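The deposited values were left and right peak boundaries in base pairs of mouse build mm9, per the file headers and the submitters' processing notes, with no other unit. The pooled Sin3A list has no header line and its 3 columns were read as those of the other lists. How the authors pooled libraries and called peaks, and at which threshold, is not given in the sources used here. Bowtie 0.12.9, SAMtools 0.1.19 and bedtools 2.17.0 are named per the submitters' processing notes, with no role. Left ends were taken as 0-based, and printed starts are 1-based. Peaks of chromosome X and the mitochondrial genome were left out, and the centre is the midpoint. Peaks sharing 1 bp or more were called shared. Overlap, gap and grouping code (Python 3.11.15, numpy 2.4.6, pandas 2.3.3, scipy 1.17.1, matplotlib 3.10.9) was tested on simulated lists and against bedtools 2.31.1. No significance test was run, because LSD1 has 1 list and peaks are not replicates; nothing in the labels says that the Sin3A replicates are separate cultures. Named regions were, outside chromosome 18, the 8 longest overlaps at Sin3A peaks found in both replicates, the 8 widest LSD1 peaks free of Sin3A and the 8 widest Sin3A peaks of both replicates free of LSD1. Groups of neighbouring peaks, support classes, the triads and the peaks over 5 kb were examined after the data were seen, and members, lists and rules were chosen with earlier results of these data known. Gene classes, gene lists and sequence features that had been planned need gene annotation and sequence of mm9, not used here, and regions are therefore named by position.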

Additional observations from a re-analysis of the deposited data

Results flagged for a closer look

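Peaks outside the autosomes appeared in both factors and entered none of the comparisons above. Those of chromosome X were added only as a setting described below. Chromosome X held 143 LSD1 and 243 pooled Sin3A peaks. Of these LSD1 peaks 26 (18.2%) met Sin3A, and of these Sin3A peaks 27 (11.1%) met LSD1, both below the autosomal shares of 25.3% and 29.4%. The mitochondrial genome held 7 LSD1 and 2 pooled Sin3A peaks, with 9 and 15 in Sin3A replicates 1 and 2.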

How the results depend on the processing

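No paired analysis was possible because LSD1 in myotubes has 1 list. The share of LSD1 peaks at Sin3A, 25.3% as reported, was 22.7% with the union of the Sin3A replicate lists, 1.47% with pooled Sin3A peaks in both replicate lists, 23.7% with the wider 50% of each list, 26.0% with lists of equal length, 23.7% when at least 50% of the shorter peak had to overlap, and 27.7% with peaks within 500 bp. Leaving out a Sin3A replicate gave 1.24% to 22.7%. The share of Sin3A peaks at LSD1, 29.4%, was 39.6%, 51.1%, 27.6%, 26.1%, 27.4% and 33.8% under the same 6 settings in that order, and 39.6% to 46.7% with a replicate left out. The ratio of median widths, 0.898, was 0.840 with the union, 0.520 with Sin3A peaks in both replicate lists, 0.858 with the wider 50% and 0.981 with equal lengths. Leaving out a Sin3A replicate gave 0.841 to 1.22, and the value above 1, without Sin3A replicate 1, turned the direction. The distance of centres, 211.5 bp, was 189.5 bp with the union, 252 bp with Sin3A peaks in both replicate lists, 238.5 bp with the wider 50%, 183 bp with overlap of 50% and 285 bp within 500 bp, and 189.5 to 203 bp with a replicate left out. The ING1 difference, -38.6 points, was -59.9 with the union, -75.7 with Sin3A peaks in both replicate lists, -67.4 with the wider 50% and -40.5 with equal lengths, and -74.1 to -59.9 with a replicate left out, negative in each. For -75.7 and -74.1 nearly all LSD1 peaks counted as LSD1-only, so these values compare other classes of sites. Adding chromosome X, or leaving out peaks over 5 kb, which was chosen after seeing the data, kept each of the 5 values within its counting interval. The fall to 1.24% and 1.47% comes with 426 and 415 Sin3A peaks left to be met, and the other causes were not tested. The depth and the peak calling behind each list are unknown. Unequal depth, unequal calling and unequal binding therefore cannot be told apart in list length, width, crowding and sharing.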
